A study of Mus musculus with 18 samples.

Results

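The 9 genes of the erythropoietin and oxygen sensing system followed in the kidney of socially defeated mice were *Epo*, *Hif1a*, *Epas1*, *Hif3a*, *Vhl*, *Egln1*, *Egln2*, *Egln3* and *Vegfa*. They were taken by gene symbol, and each had 1 of the 32675 rows of the deposited gene table. All 9 passed the filter on low counts that left 19946 genes for testing, *Epo* through 1 group only. The right kidneys of 18 male wild-type C57BL/6 mice, labelled as 6 weeks of age, had been taken for bulk RNA sequencing from 3 groups of 6. Ctrl mice were handled every day and were not defeated. The StressPbs mice (PBS) went through chronic social defeat stress (CSDS), in which an aggressive CD-1 resident attacked them for 10 min a day over 2 weeks, and received phosphate-buffered saline intraperitoneally each day. The StressFlx mice (FLX) went through the same defeats and received fluoxetine, a selective serotonin reuptake inhibitor, at 10 mg per kg each day by the same route. No group received fluoxetine without stress, and the methods describe no injection of the Ctrl mice, so PBS against Ctrl combines defeat with the injections. The replicates are separate mice by the study's account.

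In well oxygenated cells, the prolyl hydroxylases encoded by *Egln1*, *Egln2* and *Egln3* modify the alpha subunits of the hypoxia-inducible factors (HIF), and the product of *Vhl*, the substrate receptor of a ubiquitin ligase, marks them for destruction. When oxygen falls, the alpha subunits encoded by *Hif1a* and *Epas1* (HIF-2 alpha) escape, pair with ARNT and switch on genes such as *Vegfa*, an angiogenic growth factor, and *Epo*. Erythropoietin is the hormone that drives red cell formation, and in the adult it comes mainly from fibroblast-like interstitial cells of the kidney under the control of HIF-2 alpha. *Hif3a* encodes a further alpha subunit, whose short forms can restrain the other two. Because much of this control acts on protein stability, RNA levels of the sensors need not follow the activity of the pathway.

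The 9 genes fell into 2 classes by abundance, given as FPKM (fragments scaled to transcript length and library size). In the Ctrl kidneys, *Vegfa* was the most abundant at 46.9 ± 4.45 FPKM (SD, n = 6), above 95.0% of the genes tested. *Egln2* at 21.96 ± 2.64 FPKM and *Egln1* at 18.1 ± 0.786 FPKM followed, with overlapping ranges. *Hif1a* at 8.65 ± 1.34, *Epas1* at 6.94 ± 2.56, *Vhl* at 6.15 ± 0.551 and *Egln3* at 5.24 ± 0.467 FPKM came next, and each overlapped its neighbour in the order. *Epo* at 0.0844 ± 0.145 FPKM and *Hif3a* at 0.0488 ± 0.0192 FPKM lay far lower, above only 9.004% and 4.96% of the genes tested, and overlapped each other. The order was the same in PBS kidneys, where *Epo* rose to the 46.3 percentile and *Hif3a* stood at the 19.8 percentile. In FLX kidneys *Vhl* and *Epas1* exchanged places, with overlapping ranges, and *Epo* and *Hif3a* were again the least abundant, at 0.119 ± 0.123 and 0.0674 ± 0.0262 FPKM.

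The total count per library lay between 48928823 and 79061296. FLX replicates 3 to 6 were at or below 52073640 and the other 14 mice at or above 72149987. The labelled tissue matched its markers. All 7 tubule markers, such as *Umod* of the thick ascending limb and *Slc34a1* of the proximal tubule, were detected in every mouse at a summed 1923 to 2551 FPKM, with no call in any comparison by edgeR, DESeq2 or either limma fit and 1 of the 7 under an unadjusted p of 0.05 (in FLX against PBS). Single tubule markers varied more between mice than this sum. *Aqp2* ran from 58.3 to 359.6 FPKM and *Slc12a1* from 35.5 to 181 FPKM. In bulk tissue, fewer cells of a type and less RNA per cell cannot be told apart.

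The promoters of *Epo* and *Hif3a*, the members that passed the test between PBS and Ctrl, are shown because both genes respond to HIF in other settings and the HIF core motif can be read in them. Each is the 250 bases before the RefSeq start (GRCm38.p6, minus strand, written 5′ to 3′), with every ACGTG or GCGTG on either strand in capitals. *Epo* lies at chr5:137485817-137486066 and *Hif3a* at chr7:17062428-17062677.
Epo: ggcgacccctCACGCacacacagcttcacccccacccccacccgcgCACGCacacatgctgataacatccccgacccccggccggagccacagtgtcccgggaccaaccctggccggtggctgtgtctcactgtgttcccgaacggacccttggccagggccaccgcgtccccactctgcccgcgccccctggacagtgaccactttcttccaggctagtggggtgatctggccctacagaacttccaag
Hif3a: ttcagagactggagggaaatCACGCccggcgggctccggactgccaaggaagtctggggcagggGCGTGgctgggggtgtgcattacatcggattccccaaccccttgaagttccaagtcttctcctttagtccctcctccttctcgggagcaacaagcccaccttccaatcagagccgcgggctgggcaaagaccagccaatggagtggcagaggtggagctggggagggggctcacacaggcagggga
Each window held 2 matches to GCGTG, read on either strand, and none to ACGTG. Their GC content was 66.8% for *Epo* and 62.0% for *Hif3a*. RefSeq promoters were found for 8 of the 9 members, *Epas1* being the exception, and 8 of these 10 promoters held a match. Of all 32851 promoters of the same length, 38.6% held one and 16.6% held ACGTG. These shares were not matched for GC content, which reached 86.0% in the *Egln1* promoter. *Vegfa* and *Egln2* each entered with 2 promoters, and the first *Vegfa* promoter and the *Vhl* promoter held no match. A match is a string of letters in this window and does not show binding, and the 3′ enhancer of *Epo* lies outside the window.

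Between PBS and Ctrl kidneys, *Epo* and *Hif3a* passed the test, both higher after defeat, and the other 7 genes did not. An unadjusted p under 0.05 was found for 4 of 9 members and for 19.8% of all genes tested. By the adjusted p, 2 of 9 members passed where 4.28% of all genes tested passed (489 higher and 364 lower, 2.45% and 1.82%), by edgeR's quasi-likelihood test with Benjamini-Hochberg adjustment over all genes and a threshold of 0.05. The median log2 fold change was 0.02 over the members and -0.0013 over all genes tested. None of the 9 members had FPKM ranges without overlap between these groups, against 2.75% of all genes tested.

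*Epo* (ENSMUSG00000029711, chromosome 5, 137483020 to 137533242, GRCm38, minus strand) was the member with the greatest change. In FPKM, Ctrl mice ranged from 0.00459 to 0.378 with a median of 0.0334, PBS mice from 0.331 to 3.03 with a median of 1.302, and FLX mice from 0.00283 to 0.339 with a median of 0.0687. The level in 5 of 6 PBS mice was above that of every Ctrl mouse, and the overlap was made by Ctrl replicate 5 (0.378 FPKM) and PBS replicate 5 (0.331 FPKM). The estimated counts behind these values ran from 1 to 29 in Ctrl, 25 to 222 in PBS and 1 to 26 in FLX mice, so that 2 Ctrl mice (replicates 1 and 4) and FLX replicate 4 rest on a count of 1. *Epo* passed the filter on low counts only through its PBS mice, since most Ctrl and FLX mice had counts of 5 or less. On the log2 scale the fitted difference of PBS from Ctrl was 3.99 (SE 0.83, 95% interval 2.21 to 5.77), a fold of 15.9, with an edgeR adjusted p of 0.0120. The exact two-sided permutation test of the mean log2(FPKM + 0.1), which cannot go below 0.00216 with 6 against 6 mice, gave p = 0.00433.

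**Figure D1:**
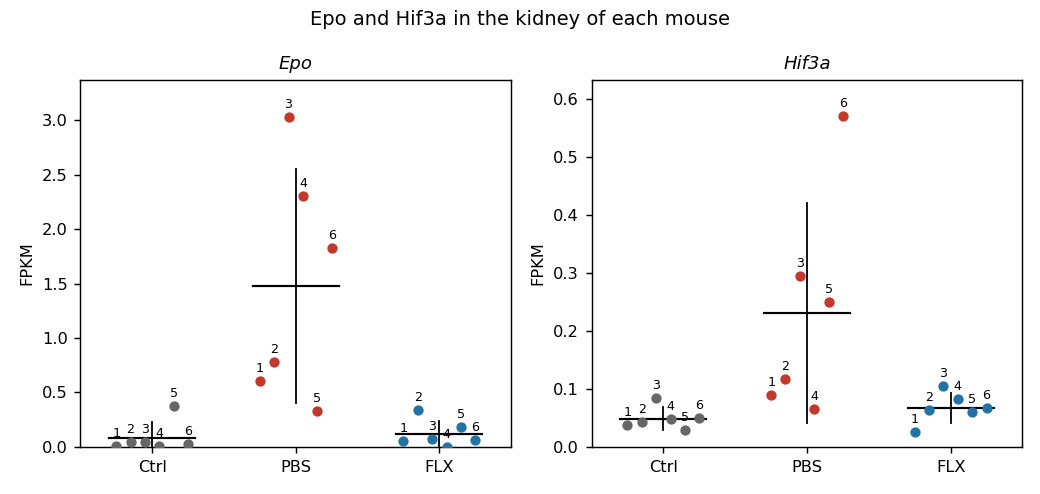
FPKM of *Epo* (left) and *Hif3a* (right) in each of the 6 mice of the Ctrl, PBS and FLX groups, numbered by replicate. The horizontal line is the mean and the vertical line 1 SD, stopped at 0; 5 of 6 PBS mice lie above every Ctrl mouse for both genes, and PBS replicate 6 has the highest *Hif3a* value.

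The size of the *Epo* difference depended on Ctrl replicate 5, without which the log2 difference was 5.48 (edgeR adjusted p = 0.00267). The call held in all 18 fits that left out 1 mouse, with adjusted p-values between 0.00267 and 0.0361. The study deleted the data of 1 unnamed PBS mouse for excessive inflammatory gene expression. PBS replicate 6, which had the highest summed neutrophil markers, carried 1.82 FPKM of *Epo*, and without it the PBS mean was 1.41 ± 1.18 FPKM (SD, n = 5) and the log2 difference from Ctrl 3.93 (edgeR adjusted p = 0.0155).

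The deposited *Epo* row spans 2 annotated transcripts, one of 2797 bases and one of 50223 bases that reaches across neighbouring genes. Of the 855 exon bases of the gene, 104 were shared with *Gnb2*, a G protein subunit gene on the same strand, so reads there could be given to either. *Gnb2* had means of 43.5 ± 3.23, 46.5 ± 4.37 and 45.9 ± 2.17 FPKM in Ctrl, PBS and FLX kidneys. Its log2 difference was 0.09 between PBS and Ctrl (edgeR adjusted p = 0.558) and -0.10 between FLX and PBS (edgeR adjusted p = 0.655), while *Epo* differed by 3.99 and -3.52. The part of shared reads in the *Epo* values was not tested.

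In FLX against PBS kidneys, where 0.557% of all genes tested passed, no member did, although 5 of 9 had an unadjusted p under 0.05, as had 12.2% of all genes tested. No member had FPKM ranges without overlap, against 2.04% of all genes tested. *Epo* was the closest. Its FLX mean of 0.119 ± 0.123 FPKM stood against 1.48 ± 1.07 FPKM in PBS mice, and 5 of 6 FLX mice lay below every PBS mouse. The fitted log2 difference was -3.52 (SE 0.82, 95% interval -5.26 to -1.78) with an edgeR adjusted p of 0.0556, just outside the threshold, and the exact permutation p was 0.00433. The same difference passed with DESeq2 (-3.55, adjusted p = 0.000715) and with limma on log2(FPKM + 0.1), where it was -2.69 (adjusted p = 0.0173). By those tools 2 members (*Epo* and *Hif3a*) and 1 member (*Epo*) passed. In edgeR it also passed when Ctrl replicate 5 (adjusted p = 0.0239), PBS replicate 2 (0.0480) or PBS replicate 5 (0.0361) was left out. It passed in no other edgeR alternative. Leaving out any FLX mouse gave adjusted p-values of 0.0637 to 0.134, the fit of 2 groups only 0.0698 and the replicate block 0.0853. With FLX replicates 1 and 2 only, the difference was -2.88 (edgeR adjusted p = 0.865). FLX replicates 3 to 6 had fewer counts than the other 14 mice. Their *Epo* levels were 0.0701, 0.00283, 0.182 and 0.0673 FPKM, and those of FLX replicates 1 and 2 were 0.0507 and 0.339 FPKM.

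FLX and Ctrl kidneys were the least apart in *Epo*. The fitted log2 difference was 0.47 with a 95% interval of -1.25 to 2.20 (edgeR adjusted p = 0.811; exact permutation p = 0.481) with an upper end at a 4.59-fold increase. Across this comparison 1.77% of all genes tested passed and no member did, with 2 members under an unadjusted edgeR p of 0.05 against 17.7% of all genes tested. The FPKM ranges of all 9 members overlapped here too, and 3.44% of all genes tested had ranges that did not. DESeq2 and both limma fits also called no member. The 3 comparisons share groups: PBS mice enter the first and the second and Ctrl mice the first and the third, so the higher *Epo* in PBS mice sits in both of the first pair of differences.

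*Hif3a* (ENSMUSG00000004328, chromosome 7, 17031507 to 17062427, minus strand) was the only HIF alpha gene that passed the edgeR test between PBS and Ctrl. Ctrl mice ranged from 0.0294 to 0.0852 FPKM with a median of 0.0453, PBS mice from 0.0652 to 0.570 with a median of 0.183, and FLX mice from 0.0263 to 0.105 with a median of 0.0651. As for *Epo*, 5 of 6 PBS mice exceeded every Ctrl mouse, with PBS replicate 4 (0.0652 FPKM) inside the Ctrl range and PBS replicate 6 (0.570 FPKM) the highest. The fitted log2 difference of PBS from Ctrl was 2.19 (SE 0.46, 95% interval 1.22 to 3.17), a fold of 4.57, with an edgeR adjusted p of 0.0118 and an exact permutation p of 0.00433. Without PBS replicate 6 the PBS mean was 0.163 ± 0.103 FPKM (SD, n = 5) in place of 0.231 ± 0.190 FPKM, and the log2 difference was 1.71 (edgeR adjusted p = 0.0228). With limma on log2(FPKM + 1), a scale on which such low values barely move, the difference was 0.22 and the call was lost (adjusted p = 0.0839).

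The *Hif3a* mean was lower in FLX than in PBS mice, with a log2 difference of -1.82 (95% interval -2.79 to -0.86) that missed the threshold (edgeR adjusted p = 0.0746; exact permutation p = 0.0216). It passed with DESeq2 (adjusted p = 0.00619) and was -1.34 without PBS replicate 6 (edgeR adjusted p = 0.151). Between FLX and Ctrl the log2 difference was 0.37, with an interval from -0.59 to 1.33 (edgeR adjusted p = 0.714). The estimated counts of *Hif3a* were 18 to 53 in Ctrl, 40 to 323 in PBS and 17 to 41 in FLX mice.

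The other HIF alpha subunits gave smaller differences, none of which passed. *Hif1a* (chromosome 12, 73901375 to 73947530) had medians of 8.71, 10.1 and 10.4 FPKM in Ctrl, PBS and FLX mice, with ranges of 6.97 to 10.3, 8.47 to 15.7 and 8.87 to 13.98 FPKM. The 3 ranges overlapped, and 3 of 6 mice of each stressed group lay above every Ctrl mouse. The log2 difference of PBS from Ctrl was 0.39 (95% interval 0.09 to 0.69; edgeR adjusted p = 0.123; exact permutation p = 0.0563). Between FLX and PBS it was -0.14, with an interval from -0.43 to 0.16.

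*Epas1* (chromosome 17, 86753700 to 86833410), the HIF alpha gene known for driving *Epo*, had almost equal means in PBS and Ctrl kidneys. Ctrl mice ranged from 5.30 to 11.96 FPKM with a median of 5.97, PBS mice from 5.18 to 9.58 with a median of 6.67, and FLX mice from 4.21 to 5.87 with a median of 5.16. The highest Ctrl value, 11.96 FPKM in replicate 3, stood far above the next. The log2 difference of PBS from Ctrl was -0.01 (95% interval -0.38 to 0.36). The FLX values differed from PBS by -0.51 (interval -0.89 to -0.14; edgeR adjusted p = 0.201; exact permutation p = 0.0238) and from Ctrl by -0.52 (edgeR adjusted p = 0.130; exact permutation p = 0.0498), and neither difference passed after adjustment.

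*Vhl* (chromosome 6, 113623959 to 113631633) had its lowest mean in PBS mice. Its range was 5.65 to 7.23 FPKM in Ctrl mice with a median of 6.00, 4.22 to 6.66 with a median of 5.30 in PBS mice, and 5.44 to 7.85 with a median of 6.89 in FLX mice. Of the PBS mice, 5 of 6 lay below every Ctrl mouse, but PBS replicate 3 reached 6.66 FPKM. The log2 difference was -0.24 between PBS and Ctrl (95% interval -0.48 to -0.0076; edgeR adjusted p = 0.226) and 0.29 between FLX and PBS (interval 0.05 to 0.52; edgeR adjusted p = 0.265). The exact permutation p-values, not adjusted over genes, were 0.0519 and 0.0195.

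The 3 prolyl hydroxylase genes gave no call. *Egln1* (chromosome 8, 124908587 to 124949324), the main oxygen sensor of the family, ranged from 16.7 to 19.0 FPKM in Ctrl, 15.7 to 23.8 in PBS and 18.2 to 21.7 in FLX mice, with medians of 18.1, 19.0 and 20.1. Its log2 difference of PBS from Ctrl was 0.09, with an interval from -0.09 to 0.27, which ends at a 1.21-fold increase. On the FPKM scale 4 of 6 FLX mice exceeded every Ctrl mouse (exact permutation p = 0.0152), while the edgeR fit, with its own scaling of libraries, gave a log2 difference of 0.06 (adjusted p = 0.763).

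*Egln2* (chromosome 7, 27158658 to 27166802) had medians of 22.8, 20.8 and 21.5 FPKM in Ctrl, PBS and FLX mice and ranges of 17.5 to 25.1, 17.8 to 22.4 and 18.3 to 22.8 FPKM. Its log2 difference of PBS from Ctrl was -0.10 (95% interval -0.32 to 0.11), and that of FLX from PBS -0.05 (interval -0.26 to 0.17). *Egln3* (chromosome 12, 54178981 to 54203860), which HIF itself is known to induce, spread more: 4.51 to 5.71 FPKM in Ctrl, 3.16 to 7.49 in PBS and 2.95 to 5.78 in FLX mice, with medians of 5.39, 4.55 and 3.895. The PBS values lay on both sides of the Ctrl range, with 2 mice above and 3 below it. The log2 difference was -0.08 between PBS and Ctrl and -0.47 between FLX and Ctrl (interval -0.86 to -0.08; edgeR adjusted p = 0.191; exact permutation p = 0.0390).

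*Vegfa* (chromosome 17, 46016993 to 46032369) gave no call in any of the 3 comparisons. Ctrl mice ranged from 42.4 to 55.1 FPKM with a median of 46.8, PBS mice from 39.5 to 55.7 with a median of 46.9, and FLX mice from 48.0 to 62.2 with a median of 50.6. The log2 difference of PBS from Ctrl was 0.02 (95% interval -0.18 to 0.23), of FLX from PBS 0.05 (interval -0.16 to 0.25) and of FLX from Ctrl 0.07 (interval -0.14 to 0.27). The upper end of the FLX minus Ctrl interval is a 1.21-fold increase.

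**Figure D2:**
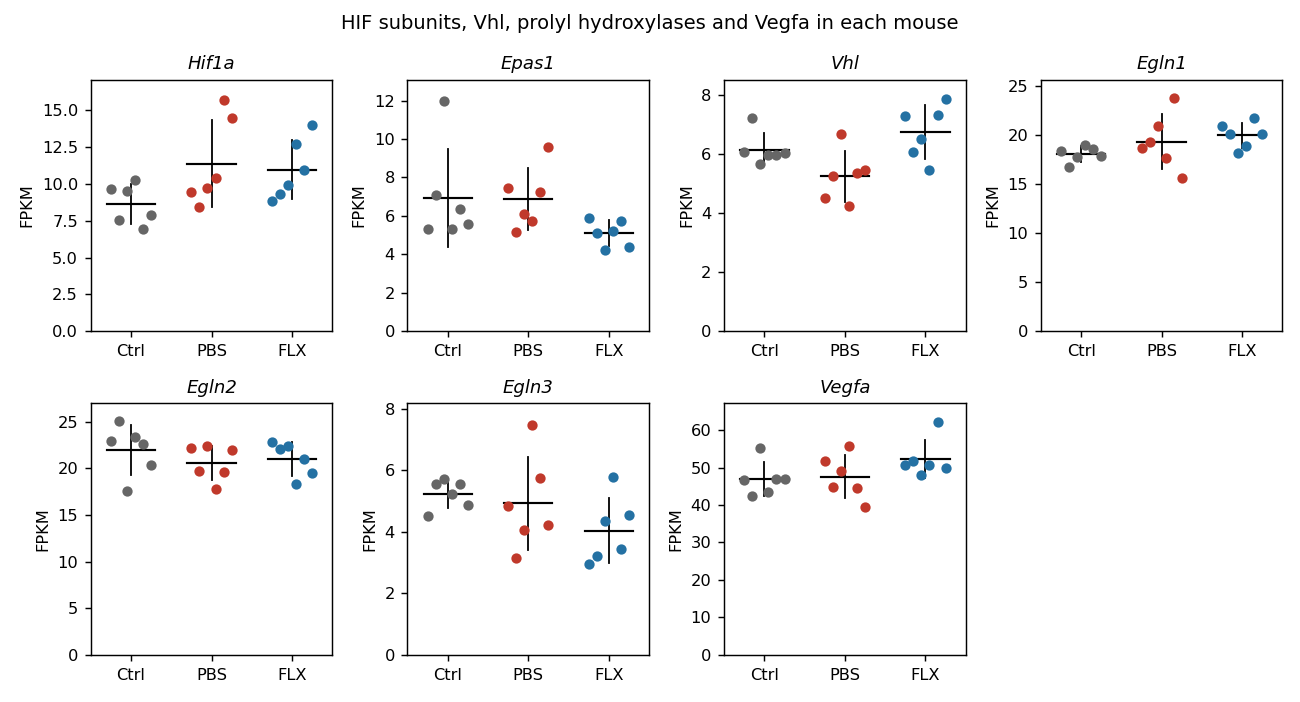
FPKM of the other 7 genes in each mouse, in replicate order within the Ctrl, PBS and FLX groups, with the mean (horizontal line) and 1 SD (vertical line). The ranges of the 3 groups overlap for each of these genes, and the single *Epas1* value at 11.96 FPKM belongs to Ctrl replicate 3.

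**Figure D3:**
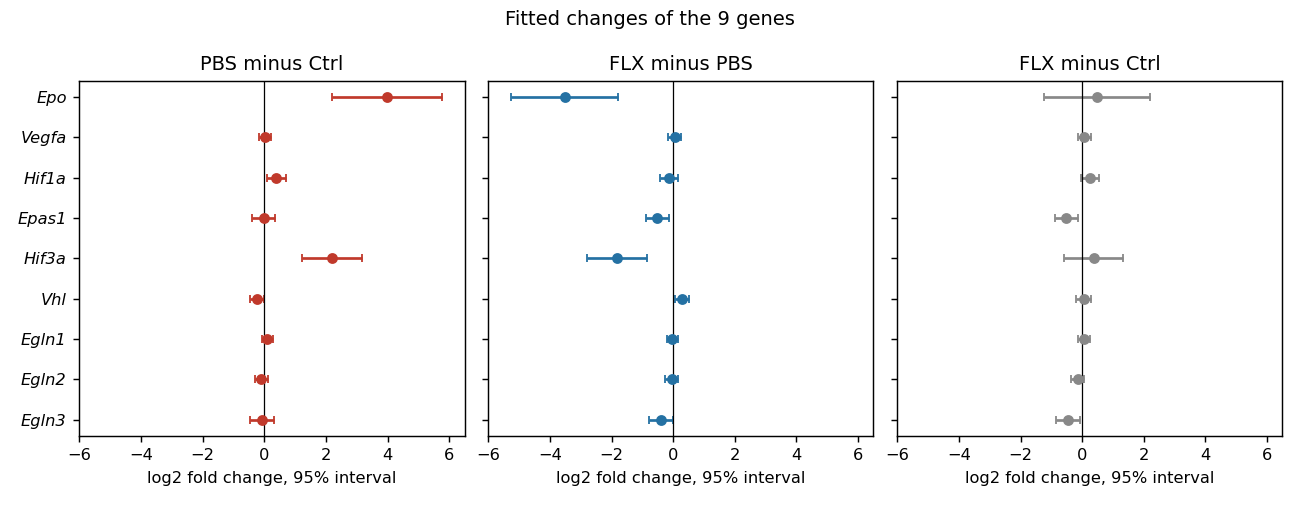
Fitted log2 fold changes of the 9 genes with 95% intervals from the edgeR fit, for PBS minus Ctrl, FLX minus PBS and FLX minus Ctrl. *Epo* (3.99) and *Hif3a* (2.19) stand apart in PBS minus Ctrl, and their intervals are also the widest.

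Neutrophil markers moved with the groups beside *Epo* and *Hif3a*. The summed FPKM of 6 neutrophil markers ran from 1.42 to 3.39 in Ctrl, 6.66 to 59.8 in PBS and 0.281 to 4.96 in FLX mice, so the PBS mice were also set apart by these markers. PBS replicate 6 had the highest sum, and the other 5 PBS mice reached at most 25.7 FPKM. Of the 5 neutrophil markers tested, *S100a8* (log2 difference 3.74, edgeR adjusted p = 0.0102), *S100a9* (3.35, adjusted p = 0.0143), both subunits of calprotectin, and *Retnlg* (3.92, adjusted p = 0.0401) were higher in PBS than in Ctrl mice. *S100a8* was lower in FLX than in PBS mice (-3.93, edgeR adjusted p = 0.0275), a call lost when FLX replicate 1, 2, 3 or 6 or PBS replicate 4 was left out. *Cxcr2* was not tested and was listed at 0 in 8 mice, and *Retnlg* at 0 in 5. The call of *Retnlg* was lost in 8 of the 18 fits that left out a mouse (Ctrl replicate 1, 4, 5 or 6, FLX replicate 2, or PBS replicate 1, 4 or 6). Without PBS replicate 6 it stood at 3.69 (adjusted p = 0.0691), while *S100a8* (2.96, adjusted p = 0.0205) and *S100a9* (2.66, adjusted p = 0.0285) kept theirs. The part of neutrophils in the *Epo* and *Hif3a* differences was not tested.

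The cells that hold the erythropoietin producers were measured by 8 fibroblast and pericyte markers, detected in every mouse. Their summed levels were 29.0 to 33.9 FPKM in Ctrl, 33.2 to 57.8 in PBS and 33.3 to 62.0 in FLX mice. All 8 had a positive log2 difference in PBS and in FLX against Ctrl, with medians of 0.42 and 0.44, but none passed by edgeR in any comparison (2 of 8 under an unadjusted p of 0.05 against Ctrl in both, and 0 of 8 between FLX and PBS). DESeq2 called 1, in FLX against Ctrl, and limma none. *Dcn*, which encodes the matrix proteoglycan decorin, and *Col1a2*, a type I collagen gene, were closest, at log2 differences of 0.78 (FLX against Ctrl, edgeR adjusted p = 0.106) and 0.56 (PBS against Ctrl, edgeR adjusted p = 0.126). The part of these cells in the *Epo* differences was not tested.

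Markers of fat, which surrounds the kidney, varied widely between mice in each group. The 5 fat markers summed to 3.55 to 195 FPKM in Ctrl, 11.8 to 1180 in PBS and 26.5 to 1177 in FLX mice, and brown fat's uncoupling protein gene *Ucp1* ran from 0 FPKM (2 mice) to 213.6 FPKM. No fat marker passed by edgeR, DESeq2 or limma in any comparison, with 1 of 5 under an unadjusted p of 0.05 in each comparison with Ctrl. *Ucp1* differed by 4.40 on the log2 scale (PBS against Ctrl, edgeR adjusted p = 0.132) and *Plin1*, a lipid droplet coat gene, by 2.30 (FLX against Ctrl, adjusted p = 0.323). Adrenal cortex markers were at or near 0: *Cyp11b2* was listed at 0 in 17 of 18 mice, and the 6 markers summed to at most 3.57 FPKM.

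Genes known to be induced through HIF are the wider readout of the pathway, and 41 were read, none of them a member. Between PBS and Ctrl, 26 of the 41 had an unadjusted p under 0.05, against 19.8% of all genes tested. By edgeR's adjusted p 7 were higher and 1 was lower, against 2.45% and 1.82% of all genes tested. A positive log2 difference was found for 36 of the 41. The median was 0.37, against -0.0013 over all genes tested. The 4 with the lowest adjusted p were *Ddit4*, an inhibitor of mTORC1 signalling that also responds to glucocorticoids, the glycolytic genes *Pfkl* (liver phosphofructokinase) and *Eno1* (enolase), and *Car9* (carbonic anhydrase 9). In FPKM *Ddit4* ranged from 7.17 to 15.1 in Ctrl, 25.8 to 71.7 in PBS and 14.2 to 54.5 in FLX mice. Its PBS and Ctrl ranges did not overlap, and the log2 difference was 2.16 (SE 0.31, edgeR adjusted p = 0.000788).

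*Pfkl* ranged from 5.98 to 6.94 FPKM in Ctrl, 9.28 to 18.5 in PBS and 7.16 to 13.3 in FLX mice, with a log2 difference of PBS from Ctrl of 0.90 (edgeR adjusted p = 0.00306). *Eno1* ranged from 81.3 to 106.4, 137.4 to 263 and 102.5 to 164 FPKM in the same order of groups, with a difference of 0.81 (adjusted p = 0.00400). The highest *Pfkl* values of the stressed groups were in PBS replicate 5 (18.5 FPKM) and FLX replicate 5 (13.3 FPKM). These mice also had the highest summed fat markers of their groups (1180 and 1177 FPKM). *Eno1* was highest in FLX replicate 5 (164 FPKM) but in PBS replicate 6 (263 FPKM). The part of fat in the *Pfkl* and *Eno1* values was not tested. In both genes every PBS mouse was above every Ctrl mouse. *Car9*, one of the most widely used markers of HIF activity, went the other way, from 2.90 to 5.88 FPKM in Ctrl to 1.38 to 2.42 FPKM in PBS mice, a log2 difference of -1.22 (adjusted p = 0.00588), again without overlap. Its mean in FLX mice was 3.15 ± 0.934 FPKM.

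The other 4 called genes, outside the naming rule and named to complete the count, were *Aldoa* (log2 difference 0.49, edgeR adjusted p = 0.0176) and *Pgam1* (0.37, adjusted p = 0.0220) of glycolysis, *P4ha2* (0.41, adjusted p = 0.0326) of collagen prolyl hydroxylation, and *Hmox1* (1.80, adjusted p = 0.0385), the heme oxygenase gene that oxidative stress also induces. The *P4ha2* and *Hmox1* calls were lost in 7 and 9 of the 18 fits that left out a mouse, and that of *Pgam1* without Ctrl replicate 2. The *Hmox1* PBS mean was 49.2 ± 59.1 FPKM, and the difference was 0.93 without PBS replicate 5 and 1.71 without PBS replicate 6, with neither passing. Without PBS replicate 6, 8 genes of the list passed, but not the same 8. *P4ha2* (0.38, edgeR adjusted p = 0.0619) and *Hmox1* were no longer among them. Leaving out Ctrl replicate 2 gave 5 and PBS replicate 2 gave 13. DESeq2 called 15.

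Between FLX and PBS mice, 38 of the 41 had a negative log2 difference and the median was -0.24. An unadjusted p under 0.05 was found for 13 of the 41, against 12.2% of all genes tested. By the adjusted p, which 0.557% of all genes tested passed, only *Bnip3*, a mitophagy receptor gene, passed (86.8 ± 22.6 FPKM in PBS and 59.2 ± 2.32 in FLX mice, log2 difference -0.63, edgeR adjusted p = 0.0282). Its call was lost when any of the 6 FLX mice or PBS replicate 4 was left out. *Ddit4* differed by -1.01 (adjusted p = 0.126), *Pfkl* by -0.53 (adjusted p = 0.119) and *Eno1* by -0.52 (adjusted p = 0.0993). In FLX against Ctrl, 27 of the 41 were positive and the median was 0.14. An unadjusted p under 0.05 was found for 12 of the 41, against 17.7% of all genes tested. *P4ha2* alone passed (0.42, edgeR adjusted p = 0.0458), where 1.77% of all genes tested did. Its call held in 3 of the 18 fits that left out a mouse. The summed list ran from 1584 to 2075 FPKM in Ctrl, 2194 to 2827 in PBS and 1995 to 2477 in FLX mice, so every PBS mouse was above every Ctrl mouse. This sum mostly follows the abundant genes. In Ctrl mice the means were 379 FPKM for *Ndrg1*, 304 for *Tpi1* and 260 for *Aldoa*, but 4.82 FPKM for *Car9*.

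**Figure D4:**
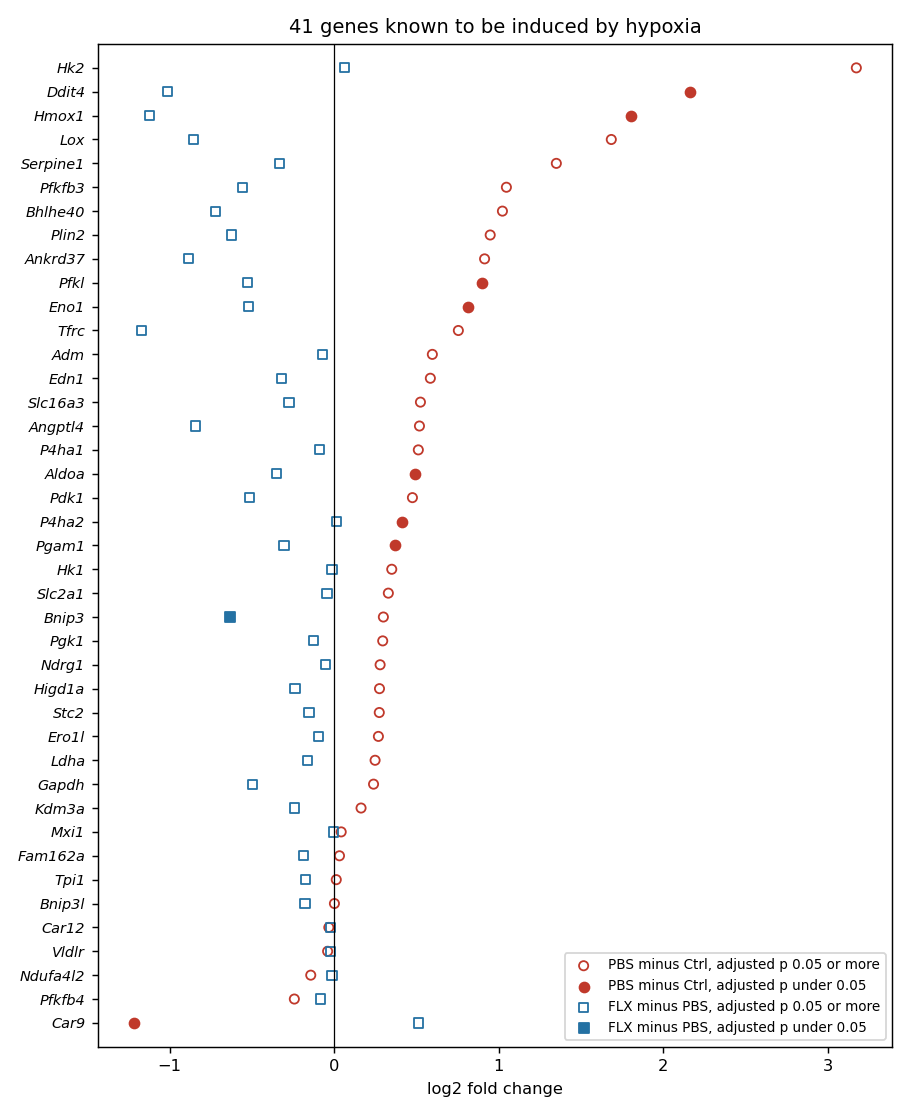
Log2 fold changes of the 41 hypoxia-induced genes, ordered by PBS minus Ctrl (circles), with FLX minus PBS (squares). Filled symbols passed an adjusted p of 0.05; both sets of differences use the same PBS mice, so their opposite signs are not independent, and *Car9* lies at the far left of PBS minus Ctrl.

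**Figure D5:**
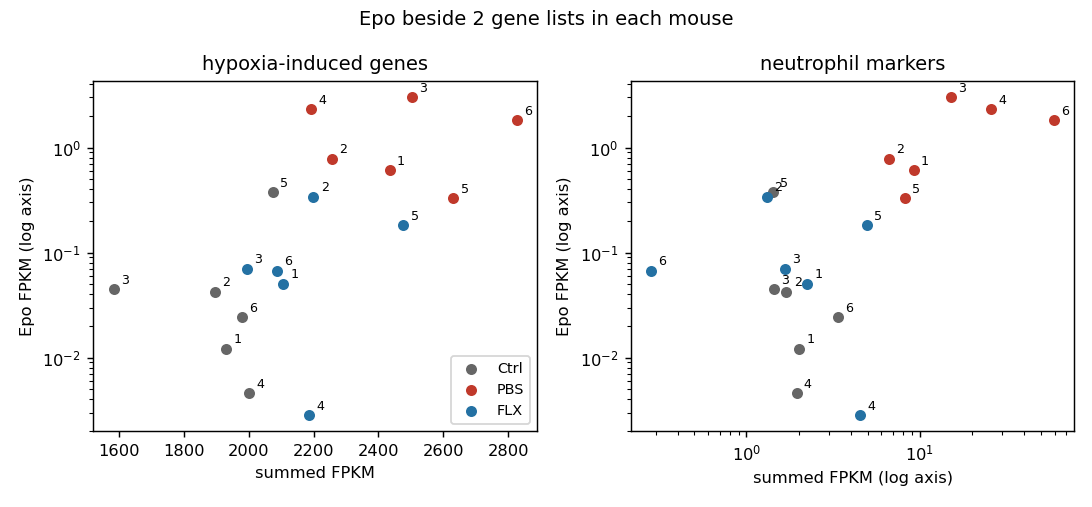
*Epo* FPKM of each mouse (log axis) against the summed FPKM of the 41 hypoxia-induced genes (left) and of 6 neutrophil markers (right, log axis), with points numbered by replicate within the Ctrl, PBS and FLX groups. PBS mice separate from Ctrl mice on both horizontal axes. PBS replicate 5 has the lowest *Epo* of its group, 0.331 FPKM, at the second highest hypoxia sum, and also has the highest summed fat markers, 1180 FPKM. The hypoxia sum is weighted to its most abundant genes.

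The proteins that work with the HIF alpha subunits were read through 13 genes, among them the HIF partners *Arnt* and *Arnt2* and the ubiquitin ligase parts that join *Vhl*. None passed by edgeR in any comparison, with 0, 1 and 4 of 13 under an unadjusted p of 0.05 in PBS against Ctrl, FLX against PBS and FLX against Ctrl. DESeq2 and each limma fit called 0, 0 and 1. Over the edgeR fits that left out 1 mouse, the calls were 0 to 1, 0 and 0 to 4. *Hif1an*, the asparaginyl hydroxylase that blocks HIF transactivation, had means of 5.397 ± 0.607, 5.56 ± 0.366 and 6.73 ± 0.724 FPKM in Ctrl, PBS and FLX mice and a log2 difference of FLX from Ctrl of 0.23 (edgeR adjusted p = 0.106). *Elob*, the elongin B gene, had means of 80.4 ± 16.7, 78.3 ± 11.01 and 68.2 ± 2.92 FPKM and differed by -0.33 (adjusted p = 0.219). Its Ctrl replicate 3 stood at 47.3 FPKM. The other Ctrl mice, at 80.1 to 91.6 FPKM, lay above every FLX mouse (64.1 to 71.6 FPKM).

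Transcription factors other than HIF that act on the *Epo* gene gave no edgeR call among the 5 of 6 tested, with 2, 0 and 2 under an unadjusted p of 0.05 in the same 3 comparisons. DESeq2 called 1, 0 and 1, and limma 0, 0 and 1. *Hnf4a*, which cooperates with HIF at the *Epo* enhancer, had means of 102.5 ± 7.22, 119 ± 10.8 and 134 ± 13.2 FPKM in Ctrl, PBS and FLX mice. Its log2 difference was 0.22 between PBS and Ctrl (edgeR adjusted p = 0.205) and 0.30 between FLX and Ctrl (adjusted p = 0.110). *Wt1*, which is also a podocyte gene, differed by 0.61 between PBS and Ctrl (adjusted p = 0.106).

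Of 10 genes of the erythropoietin receptor and its signalling and feedback, *Socs3*, a feedback inhibitor of cytokine signalling that interleukin-6 also induces, was the 1 that passed between PBS and Ctrl by edgeR, with 2 under an unadjusted p of 0.05. DESeq2 called 1 of the 10 there and neither limma fit called any. It ranged from 0.755 to 1.37 FPKM in Ctrl, 0.943 to 23.8 in PBS and 0.773 to 1.96 in FLX mice, with the value of 23.8 in PBS replicate 6. The log2 difference was 2.47 (edgeR adjusted p = 0.0253; exact permutation p = 0.0606), and without that mouse it was 1.34 and no longer passed (adjusted p = 0.0693). Leaving out any Ctrl mouse but replicate 3 also ended the call. The receptor gene *Epor* had means of 2.24 ± 1.74, 1.76 ± 1.17 and 1.16 ± 0.253 FPKM in Ctrl, PBS and FLX kidneys, and *Cish*, a target of the receptor's signalling, 7.18 ± 2.04, 10.9 ± 10.04 and 7.71 ± 3.803 FPKM, with no call for either. In FLX against PBS none of the 10 passed by edgeR or limma and 1 by DESeq2, with 4 under an unadjusted p of 0.05, and in FLX against Ctrl none by any of these tools, with 1 under it.

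Red cell genes report the blood left in the tissue and its young cells rather than kidney cells. The 4 globin genes and *Alas2*, the red cell enzyme of heme synthesis, summed to 38.7 to 772 FPKM in Ctrl, 93.9 to 2129 in PBS and 32.3 to 295 in FLX mice. None of the 5 passed by edgeR or limma in any comparison. All 5 had an unadjusted p under 0.05 between FLX and PBS, as had 12.2% of all genes tested, and none had one in either comparison with Ctrl. DESeq2 called 2 of the 5 between FLX and PBS, where the median log2 difference was -2.51. The high PBS sums were those of replicate 2 (2129 FPKM) and replicate 4 (1148 FPKM). The other PBS mice summed to 93.9 to 295 FPKM, near or within the FLX range. *Alas2* had means of 0.590 ± 0.556, 1.53 ± 1.70 and 0.286 ± 0.175 FPKM (FLX against PBS, log2 difference -2.51, edgeR adjusted p = 0.151). *Hbb-bt*, a beta globin gene whose reads may be shared with its near copies, had means of 67.8 ± 65.2, 149.9 ± 179.7 and 26.4 ± 17.6 FPKM (FLX against PBS, -2.60, adjusted p = 0.159).

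Among the other VEGF ligands and receptors, *Vegfd*, a ligand of lymphatic growth, was higher in PBS than in Ctrl mice, at 3.22 ± 1.12 against 1.93 ± 0.339 FPKM (log2 difference 0.73, edgeR adjusted p = 0.0239). It was the only one of 9 that passed by edgeR in any comparison, and DESeq2 called 2, 0 and 2 of them in PBS against Ctrl, FLX against PBS and FLX against Ctrl. The call held without PBS replicate 6 (0.53, adjusted p = 0.0375) and was lost without Ctrl replicate 2, 5 or 6. With FLX the numbers under an unadjusted p of 0.05 were 1 of 9 against PBS and 4 of 9 against Ctrl. *Vegfd* lay at 2.81 ± 0.524 FPKM in FLX mice, with no call against Ctrl (0.45, adjusted p = 0.188).

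Within groups, how far the members varied together from mouse to mouse was described by correlation. After the group means were taken away, the highest of the 36 Pearson correlations of log2(FPKM + 0.1) over the 18 mice was 0.55, between *Hif1a* and *Hif3a*, and the lowest -0.49, between *Egln2* and *Egln3*. *Epo* and *Hif3a* had a correlation of 0.07, and *Epo* and *Epas1* of 0.02. Most Ctrl and FLX mice had less *Epo* than the added 0.1 FPKM, and every Ctrl mouse had less *Hif3a*. Correlations with these genes therefore cannot show whether they vary with the others at such low levels. All of the correlations come from the same libraries and share their scaling.

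The genes most like each member were taken in the same way from the 12125 or 12126 other genes with a mean of at least 1 FPKM, and are given as a description of 18 mice. *Epo* lay mostly below the added 0.1 FPKM in Ctrl and FLX mice. Its highest correlations were 0.75 with *Mtrf1*, 0.70 with *Rad52* and 0.69 with *Gm31718*, lower than for any other member. *Hif3a* also lay below 0.1 FPKM in every Ctrl mouse and most FLX mice. Its highest correlations were 0.92 with *Fut11*, 0.91 with *Hnrnpl* and 0.89 with *Pear1*. *Hif1a* was most like *Ptp4a2* (0.94), *Slc12a2* (0.91) and *Akr1b8* (0.91), and *Epas1* most like *D630045J12Rik* (0.88), *Emc1* (0.88) and *Scn4b* (0.87). *Vegfa* was most like *Enpep* (0.90), *Igtp* (0.89) and *Tgtp1* (0.88), and *Vhl* most like *Ado*, *Trmu* and *Zfp316* (0.79 each). *Egln1* was most like *Lrsam1* (0.89), *Wdr6* (0.84) and *Ghitm* (0.83), *Egln2* most like *Emc6*, *Grhpr* and *Chmp1a* (0.89, 0.89 and 0.88), and *Egln3* most like *F3* (0.81), *Rnf2* (0.80) and *Slc13a2* (0.75).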

How the data were processed

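Right kidneys of 18 mice were sequenced, and the authors deposited 1 table with estimated counts and FPKM values per gene. By the study's methods, reads were trimmed with fastp, aligned with HISAT-3N to GRCm38 and assembled with StringTie. The submitters' processing notes name cutadapt 1.9, HISAT2 2.0.4, StringTie 1.3.4d, UMI-tools, DESeq2 and edgeR. No source used here gives the counting tool or its strand setting. Although whole, the deposited counts hold more genes at 4 (median of 720 per mouse) than at 3 (484.5) or 5 (268), so they were taken as estimated counts. FPKM was calculated by the authors and was used as deposited.

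The counts were tested with edgeR 4.0.16 (R 4.3.3): filterByExpr, TMM scaling, 1 quasi-likelihood model over the 3 groups, and Benjamini-Hochberg adjustment over 19946 genes, called at 0.05. Each SE was derived from the log2 difference and the F statistic of its edgeR test. Intervals of 95% use this SE and 15 degrees of freedom, taken as a lower bound, so they need not match the test exactly. Means of log2(FPKM + 0.1) were compared by exact two-sided permutation over 924 arrangements. Alternatives were upper-quartile scaling, DESeq2 1.42.0, no filter on low counts, limma 3.58.1 on log2(FPKM + 0.1) or log2(FPKM + 1), a replicate block, fits of 2 groups only, FLX replicates 1 and 2 only, and leaving out each mouse. The edgeR steps were tested on simulated data. *Aldoa* has 2 rows, of which the one with the higher mean FPKM was used. Promoters came from RefSeq tables of GRCm38.p6. All 9 members have the start and end given in GENCODE M21.

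The members and gene lists were chosen with earlier results of these data known. All members were named. Of each other list, up to 4 called genes were named by lowest adjusted p, or else the 2 with the lowest unadjusted p, and for each member the 3 most correlated genes. All 18 labelled mice were kept. The study deleted 1 PBS mouse that it does not name.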

Additional observations from a re-analysis of the deposited data

Results flagged for a closer look

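In 6 of the 27 combinations of a gene and a group, 1 mouse stood apart from the other 5 by Dixon's criterion. For independent, normally distributed values chance alone gives about 1 in 20. The combinations share mice and the *Epo* values of Ctrl mice are skewed, so the count cannot be set against that rate. For *Epo*, Ctrl replicate 5 had 0.378 FPKM, and the nearest Ctrl mouse 0.0446. Ctrl replicate 3 stood apart in 3 genes: *Epas1* at 11.96 FPKM (nearest 7.10), *Hif3a* at 0.0852 (nearest 0.0494) and *Vegfa* at 55.1 (nearest 47.0). For *Vegfa*, FLX replicate 5 had 62.2 FPKM and the nearest FLX mouse 51.7. For *Vhl*, Ctrl replicate 2 had 7.23 FPKM and the nearest Ctrl mouse 6.05. No PBS mouse stood apart by this criterion in any of the 9 genes. The causes were not tested.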

How the results depend on the processing

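*Epo* and *Hif3a* kept the direction of the PBS minus Ctrl difference in every alternative, and the 2 calls held in all of them except *Hif3a* with limma on log2(FPKM + 1) (0.22), where 1 member was called. Leave-outs gave 2 calls each. In FLX minus PBS, 2 members passed with DESeq2, 1 with each limma fit and 0 to 1 over the leave-outs. The replicate numbers did not pair the samples, since of 18 same-number correlations only 2 were over 0.1 (range -0.23 to 0.23). With the replicate block *Epo* differed by 4.81 and *Hif3a* by 1.98 between PBS and Ctrl (edgeR adjusted p = 0.0189 and 0.0210), and 539, 48 and 99 genes were called in PBS against Ctrl, FLX against PBS and FLX against Ctrl. The counts of all genes called, 853, 111 and 354 in those comparisons, became 1629, 526 and 1047 with DESeq2 and 343, 10 and 717 in fits of 2 groups only. With FLX replicates 1 and 2 only they were 486, 0 and 2, with 1265 genes under an unadjusted p of 0.05 in FLX against PBS. Without the filter they were 69 and 162 in the comparisons with FLX. Limma gave 255 and 716 there with a pseudocount of 0.1 and 262 and 735 with 1. Over the leave-outs they ranged from 432 to 1724, 33 to 192 and 68 to 2103, the highest in both comparisons with Ctrl being without Ctrl replicate 3 (1724 and 2103).

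Differences that changed sign were uncalled and small. In PBS minus Ctrl these were *Vegfa* with upper-quartile scaling (-0.030) and *Epas1* with both limma fits (0.023 and 0.018) and the block (0.0085). In FLX minus PBS they were *Egln1* (0.057, 0.054) and *Egln2* (0.029, 0.028) with the limma fits, and both with FLX replicates 1 and 2 only (0.049 and 0.089). *Hif3a* in FLX minus Ctrl was -0.16 with FLX replicates 1 and 2 only. Leave-outs ranged across 0 in PBS minus Ctrl for *Vegfa* (-0.048 to 0.078), *Egln3* (-0.27 to 0.015) and *Epas1* (-0.12 to 0.19), in FLX minus PBS for *Vegfa* (-0.011 to 0.12), *Egln1* (-0.094 to 0.025) and *Egln2* (-0.080 to 0.0052), and in FLX minus Ctrl for *Epo* (-0.15 to 1.96). The causes were not tested. Counts of 1 in 2 Ctrl mice and 1 FLX mouse limit how closely the *Epo* fold can be known.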

Other observations

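Markers of 2 more kidney cell types were read. *Tek*, the angiopoietin receptor gene of endothelial cells, was higher in FLX than in Ctrl mice (7.37 ± 1.055 against 4.66 ± 0.635 FPKM, log2 difference 0.57, edgeR adjusted p = 0.0184), with every FLX mouse above every Ctrl mouse. It was the only one of 7 endothelial markers that passed by edgeR in any comparison, and it failed to pass when Ctrl replicate 1, Ctrl replicate 5 or FLX replicate 5 was left out. An unadjusted p under 0.05 between PBS and Ctrl, found for 19.8% of all genes tested, was found for all 5 podocyte markers. All 5 had a positive log2 difference (median 0.42). DESeq2 called 3 of them, edgeR 1 and limma none. The edgeR call was *Synpo*, the actin-binding synaptopodin gene, higher in PBS than in Ctrl mice (4.96 ± 1.25 against 3.46 ± 0.536 FPKM, 0.51, edgeR adjusted p = 0.0460), and the call was lost in 13 of 18 fits that left out a mouse.

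The tubule transporter gene *Slc5a2*, of glucose uptake in the proximal tubule, differed by -0.40 between FLX and PBS (edgeR adjusted p = 0.190), and *Slc12a3*, of sodium chloride uptake in the distal tubule, by 0.24 between PBS and Ctrl (adjusted p = 0.342). Of the 6 adrenal cortex genes, the 2 tested did not pass by edgeR in any comparison: *Star*, of cholesterol transport, differed by 0.55 (adjusted p = 0.0934, and 1 of the 2 under an unadjusted p of 0.05) and *Hsd3b1*, of steroid synthesis, by 0.74 (adjusted p = 0.304) between PBS and Ctrl, and DESeq2 called 1 of them.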
